A study of Rattus norvegicus with 11 samples.

Results

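The genes described here encode the receptor chains of leukaemia inhibitory factor (LIF) and its relatives and the signal pathway behind them. They are Lifr, Il6st, Osmr, Stat3 and Socs3, 5 of the 14506 named genes measured, and all 5 were found by symbol, each with 1 row in the deposited table. LIF binds the chain Lifr, which pairs with Il6st (gp130), the signalling chain shared by the interleukin-6 family of cytokines. The pair activates JAK kinases, which phosphorylate the transcription factor Stat3, and Stat3 switches on Socs3, which binds gp130 and JAK and shuts the signal down. In rodent embryonic stem cells this pathway sustains the naive pluripotent state, and LIF also supports cultures of extraembryonic endoderm.

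RNA was hybridised to 11 arrays (Affymetrix Rat Gene 1.0 ST) during the conversion of rat embryonic stem cells, all of the single line DAc2, to hypoblast stem cells, called cHypoSCs. In the feeder-free arm the stem cells grew on laminin in N2B27 medium with 3 µM CHIR99021, a GSK3 inhibitor, 2 µM PD0325901, a MEK inhibitor, and 5 ng/mL human BMP4. In the feeder arm they grew on mouse embryonic fibroblasts with the same 3 µM of CHIR99021 but PD0325901 at 0.5 µM. The labels name no LIF in either starting medium. From day 0 both arms were moved to the maintenance medium of rat multipotent adult progenitor cells, which holds fetal bovine serum at 2% and the factors PDGF, EGF and LIF. The arms were sampled at days 0, 7, 17 and 32. Feeder-free cells gave 1 array at day 0 and 2 at each later day, and feeder cells gave 1 array at each day. The labels do not say whether fibroblasts were present after day 0. Below, the phrases on, with and without feeder cells name the arm by its starting culture, on every day. LIF came with the other factors and the change of medium, so its own part in any change below cannot be told apart from theirs.

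Values are log2 expression, so a difference of 1 is a doubling. The level that bounds 95% of the 1240 olfactory and vomeronasal receptor genes, 8.06, served as background. In these bulk samples fewer cells of a type and less RNA per cell cannot be told apart. Cell type markers changed as the labels describe: from day 0 to day 32 all 8 hypoblast markers rose and 5 of 6 stem cell markers fell, Pou5f1 (Oct4) being the one that did not pass. Over all genes 17.4% rose and 13.7% fell to day 32. The mean of the hypoblast markers at day 7 was 13.17 and 13.32 on the feeder-free arrays and 10.81 on the feeder array, while that of the stem cell markers was 11.12 and 11.27 against 12.75. The mean of the 14 fibroblast markers was 8.31 to 8.41 on the 7 feeder-free arrays, and 9.92, 9.27, 8.79 and 8.56 on the feeder arrays of days 0, 7, 17 and 32. Of the 6 trophoblast markers 4 rose to day 7 and 1, Cdx2, fell, the mean of the 6 reaching 12.03 and 12.17 on the feeder-free day 7 arrays and 10.66 on the feeder one, against 9.15 to 9.94 on the other 8 arrays. Of 5 leukocyte markers 1, Csf1r, rose to day 7 and none to day 32. Over all genes 6.74% rose and 9.27% fell to day 7. The part of these cell types in the results below was not tested.

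Socs3, the feedback inhibitor, changed most of the 5 genes. Without feeder cells it stood at 9.18 on day 0, at 13.11 and 13.30 on day 7, at 13.46 and 13.45 on day 17, and at 13.31 and 13.24 on day 32. In the feeder arm it stood at 9.85, 12.35, 12.72 and 13.02 on the same days. The feeder array lay 0.67 above the feeder-free one on day 0 and 0.86 below the feeder-free mean on day 7. Both gaps enter the difference between the arms in the change to day 7. Every later array lay above both day 0 arrays, and the plateau was reached by day 7 without feeder cells. From day 0 to day 7 Socs3 rose by 3.35 ± 0.29 (SE of the fit, limma adjusted p = 0.00039), a 10.2-fold change, and by day 32 it had risen by 3.62 ± 0.29 (adjusted p = 0.000135). The early rise was 4.03 without feeder cells and 2.50 with them, and the feeder change was smaller by 1.53 ± 0.20 (adjusted p = 5.21e-05).

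Osmr encodes the oncostatin M receptor, which pairs with the same gp130 chain. Without feeder cells it rose from 6.75, below background, to 10.27 and 10.30 on day 7, and stood at 10.00 and 10.06 on day 17 and at 10.06 and 9.73 on day 32. On feeder cells it was 7.99 on day 0 and 8.37 on day 7, then 10.09 on day 17 and 9.72 on day 32. The arms thus reached like levels on different days, as the feeder day 7 array lay 1.92 below the feeder-free mean of that day. In the fit over both arms Osmr rose by 2.23 ± 0.55 to day 7 (limma adjusted p = 0.0283) and by 2.42 ± 0.55 to day 32 (adjusted p = 0.01). Since both day 0 values lay below background, these sizes may be understated. The change to day 7 was 3.54 without and 0.38 with feeder cells, and the arms differed in the fit by -3.16 ± 0.22 (adjusted p = 2.30e-07). Of that value 1.24 is the gap between the day 0 arrays, both below background, so its size is uncertain, whereas the day 7 gap of 1.92 lies above background. From day 7 to day 17 the feeder change was larger by 1.97 ± 0.20 (adjusted p = 8.98e-06). Without the feeder-free day 0 array the fitted rise over both arms was 1.20 to day 7 and 1.39 to day 32, and both calls were lost. The call to day 7 was also lost without either feeder-free day 7 array (adjusted p = 0.0891 and 0.0851), either of day 17 (0.051 and 0.0509) or the first of day 32 (0.0501).

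Stat3, the transcription factor itself, moved less. Without feeder cells it stood at 12.25 on day 0, at 13.04 and 13.14 on day 7, at 13.29 and 13.37 on day 17, and at 13.46 and 13.35 on day 32. In the feeder arm it stood at 12.68, 12.77, 13.30 and 13.26. The feeder array lay 0.43 above the feeder-free one on day 0 and 0.32 below the feeder-free mean on day 7. Both gaps enter the difference between the arms in the change to day 7. All arrays of days 17 and 32 lay above all of days 0 and 7. From day 0 to day 32 Stat3 rose by 0.89 ± 0.15 (limma adjusted p = 0.00263), 1.85-fold. The change to day 7, 0.52 ± 0.15, just passed (adjusted p = 0.0492), and it passed in only 2 of the 11 fits that left out 1 array, those without the feeder array of day 0 or of day 7, with values from 0.20 without the feeder-free day 0 array to 0.79 without the feeder day 0 array. It was 0.84 in the feeder-free arm and 0.10 in the feeder arm, and the arms differed by -0.75 ± 0.19 (adjusted p = 0.011).

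**Figure D1:**
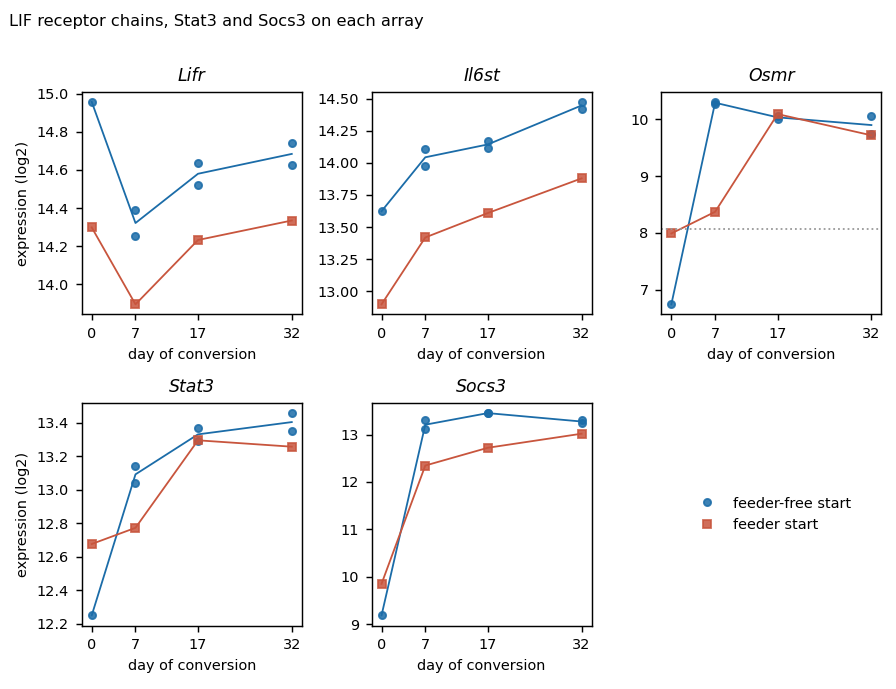
Expression (log2, a separate scale for each gene) of Lifr, Il6st, Osmr, Stat3 and Socs3 against day of conversion; each point is 1 array, circles for the feeder-free and squares for the feeder arm, lines join group means, and the dotted line marks the background of 8.06. Socs3 was high in both arms by day 7, whereas Osmr in the feeder arm stood at 8.37 on day 7 and at 10.09 on day 17.

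Il6st, the shared gp130 chain, was higher on later days in both arms. Without feeder cells it went from 13.62 on day 0 to 13.97 and 14.11 on day 7, 14.11 and 14.17 on day 17, and 14.47 and 14.42 on day 32. On feeder cells the values were 12.90, 13.42, 13.61 and 13.88. Each feeder array lay below every feeder-free array of its day. Il6st rose by 0.47 ± 0.09 to day 7 (limma adjusted p = 0.00967) and by 0.90 ± 0.09 to day 32 (adjusted p = 0.000285), 1.86-fold. The arms changed by 0.42 and 0.52 to day 7, and the interval of that difference, -0.31 to 0.51 (95% confidence), includes 0.

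Lifr, the LIF-binding chain, was the one gene of the 5 that fell. Without feeder cells it went from 14.96 on day 0 to 14.25 and 14.39 on day 7, then to 14.52 and 14.64 on day 17 and 14.74 and 14.63 on day 32. On feeder cells it was 14.30, 13.89, 14.23 and 14.33. In each arm day 7 was the lowest day. The fall of Lifr to day 7 was -0.52 ± 0.10 (limma adjusted p = 0.0135), and this call was lost without the feeder-free day 0 array (-0.37, adjusted p = 0.138). Over the whole conversion its change of -0.13 ± 0.10 did not pass (adjusted p = 0.386), with an interval from -0.37 to 0.10. The change to day 7 was -0.64 without and -0.40 with feeder cells, and the interval of the difference, -0.19 to 0.66, includes 0.

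Set against all genes, all 5 passed in the first week in the fit over both arms, 4 as rises and 1 as a fall. Of the 14506 genes 16.0% passed, 6.74% as rises and 9.27% as falls. In the feeder arm Osmr moved by 0.38 and Stat3 by 0.10, against 3.54 and 0.84 without feeder cells. The 5 genes were chosen with earlier results of these data known, and the shares over all genes are not matched for level. Leaving out the day 0 array of the feeder-free arm kept 2 calls, Il6st and Socs3. Leaving out either array of day 7, either of day 17 or the first of day 32 in that arm kept 3, and the 7 arrays of that arm by themselves gave 5. Between days 7 and 17 none of the 5 passed, where 12.8% of genes did. The nearest was Lifr at 0.29 ± 0.09 (adjusted p = 0.0725), and without either day 0 array Lifr (adjusted p = 0.0457) and Stat3 (0.0377) passed. From day 17 to day 32 none passed, as in limma 0% of genes did over all 11 arrays, although 1057 had an unadjusted p under 0.05, among them Il6st (0.29 ± 0.08, unadjusted p = 0.00414). With the arrays of those 2 days alone, chosen after seeing the data, Il6st passed (adjusted p = 0.0466). From day 0 to day 32, 4 of the 5 rose and none fell, against 31.0% of genes called, 17.4% as rises and 13.7% as falls. Over these 5 genes the median change was 0.52 to day 7 and 0.90 to day 32, against -0.04 and 0.05 over all genes.

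The share of the day 32 change present at day 7 differed between the arms for Socs3, Osmr and Stat3, and little for Il6st. On feeder cells 78.8% of the day 32 change of Socs3 was present at day 7, against 22.1% for Osmr and 16.6% for Stat3. Without feeder cells these shares were 98.4%, 112.5% and 73.0%. No share was taken for Lifr, whose change to day 32 was small. For Il6st the share was 53.1%, near the 51.0% of the feeder-free arm. Each feeder share is set against the single feeder array of day 0. The Osmr share is set against a day 0 value below background and is approximate. On the feeder day 7 array marker genes had moved to different extents as well. Nanog, a factor of the naive state, had moved by -0.06 there and by -3.72 without feeder cells. The hypoblast regulators Gata4 and Gata6 had moved by 3.09 and 2.14 there, and by 4.15 and 4.11 without feeder cells. The hypoblast markers did not move alike on that array, from -0.09 for Sox7 and 0.16 for Foxa2 to 3.96 for Cubn. In the tests of whether the change differed between the arms, 3 of the 5 genes passed (Osmr, Stat3 and Socs3) for days 0 to 7, where 22.0% of genes did, and 1 passed for days 7 to 17, Osmr, where 19.7% did. Each feeder group is 1 array and was taken to vary like the feeder-free pairs.

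**Figure D2:**
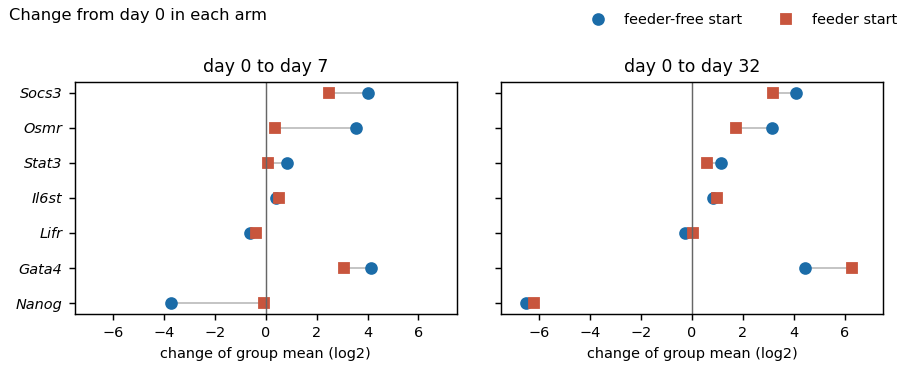
Change of the group mean (log2) from day 0 to day 7 (left) and to day 32 (right), circles for the feeder-free and squares for the feeder arm, with Gata4 and Nanog beside the 5 pathway genes. At day 7 the arms were far apart for Osmr (3.54 and 0.38, both from day 0 values below background) and Nanog (-3.72 and -0.06) but both well above 0 for Socs3 (4.03 and 2.50).

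The starting cultures already differed in this pathway. On day 0 the feeder array was lower in both LIF receptor chains, by 0.66 ± 0.15 for Lifr (limma adjusted p = 0.00391) and by 0.72 ± 0.14 for Il6st (adjusted p = 0.00161). It was higher in Stat3 by 0.43 ± 0.14 (adjusted p = 0.0367, and 0.0672 with all rows of the table tested) and in Socs3 by 0.67 ± 0.15 (adjusted p = 0.00348). Osmr lay below background on both arrays, at 7.99 and 6.75, so its difference is not read as one of expression. These 4 genes passed where 31.5% of all genes did, with 1 array on each side and the spread taken from later feeder-free pairs. Fibroblast markers were higher on the same feeder array, 12 of 14 past the test with a median difference of 0.89, and their part in the values of the 5 genes was not tested.

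On days 17 and 32 together 3 of the 5 genes were lower in the feeder arm, where 39.0% of genes differed. They were Lifr by 0.35 ± 0.09 (limma adjusted p = 0.00752), Il6st by 0.55 ± 0.09 (adjusted p = 0.000201) and Socs3 by 0.49 ± 0.09 (adjusted p = 0.000614). Il6st was lower in that arm on all 4 days, by 0.72, 0.62, 0.53 and 0.57, and Lifr by 0.66, 0.43, 0.35 and 0.35. Osmr and Stat3 did not pass, with differences of -0.06 (interval -0.28 to 0.16) and -0.09 (interval -0.28 to 0.10). Of the fibroblast markers 3 of 14 were then higher in the feeder arm and none lower, at a median difference of 0.01 over the 14. The 3 were S100a4 (3.97 on day 17 and 1.94 on day 32), Twist2 (1.48 and 0.35) and Prrx1 (0.79 and 0.09). Their part in the values of the 5 genes was not tested.

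**Figure D3:**
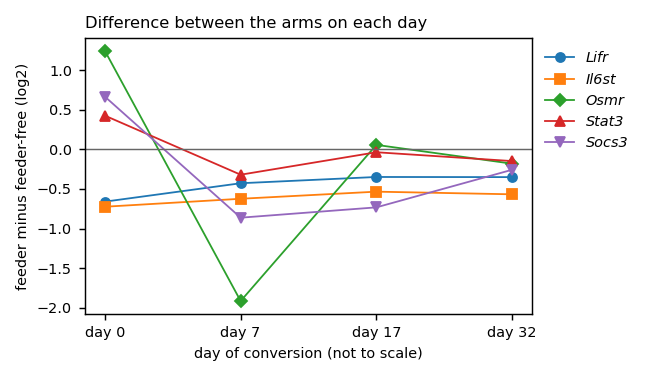
Difference between the arms (feeder minus feeder-free group mean, log2) for each of the 5 genes on days 0, 7, 17 and 32, drawn at equal steps. Il6st and Lifr lay below 0 on all 4 days, whereas Osmr stood at -1.92 on day 7 and 0.06 on day 17; its day 0 point compares 2 values below background.

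Ordered by level over the 8 groups of arm and day, neighbours were often closer than the largest difference within a feeder-free pair. For Socs3 that difference was 0.19: the feeder-free groups of days 17, 32 and 7 and the feeder group of day 32 followed each other with no step beyond it. The feeder groups of days 17, 7 and 0 and the feeder-free day 0 group then followed, each by a larger step, the largest being 2.50. For Osmr it was 0.33, and the 5 groups from feeder-free day 7 (10.29) down to feeder day 32 (9.72) had no neighbouring step beyond it. The feeder groups of days 7 and 0 and the feeder-free day 0 group lay below, each by a larger step. For Stat3, with 0.11, the 4 groups of days 17 and 32 formed such a run at the top. For Lifr, with 0.14, feeder-free day 0 stood alone at the top and feeder day 7 alone at the bottom. For Il6st, also with 0.14, the steps below feeder-free day 32 and above feeder day 0, of 0.30 and 0.52, were both larger than it.

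Among the 5180 genes whose group means spanned at least 1, those most like each gene over the 8 group means were found by Pearson correlation, as a description of groups that share arrays. For Socs3 they were Rbms2 (r = 0.98), Zfp868 (0.98) and Myo1c (0.98), and for Osmr Nectin1 (0.99), Oaf (0.99) and Nek6 (0.99). For Stat3 they were Nuak1 (0.99), Irak4 (0.99) and Pik3r3 (0.99), and for Il6st Tob1 (0.99), Eif2ak2 (0.98) and Mcm3ap (0.98). For Lifr they were Pafah2 (0.99), Prdm9 (0.99) and Asmtl (0.98). The group means of Prdm9 ran from 7.01 to 8.44, around background.

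The rest of the pathway was followed through 66 further measured genes in 6 lists, chosen with earlier results of these data known. To day 7, 13 of them rose and 2 fell, and to day 32, 20 rose and 6 fell, so that 19.7% and 30.3% rose and 3.03% and 9.09% fell. Over all genes 6.74% rose and 9.27% fell to day 7, and 17.4% rose and 13.7% fell to day 32. The first count rested on few arrays: over the 11 fits that left out 1 array the falls ran from 0 to 4, and leaving out the day 0 array of the feeder-free arm gave 3 rises, its first or second day 7 array 7 or 5, and the feeder array of day 7 gave 28. The second count became 11 rises and 3 falls when the feeder-free array of day 0 was left out.

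Among 7 ligands Lif itself rose over the conversion, as did Cntf, a relative that acts on nerve cells. To day 32, 17.4% of all genes rose. Cntf lay around background without feeder cells, at 7.49 on day 0 and at 8.30 and 8.04 on day 32, so the size of its rise there is uncertain. Lif stood at 9.56 on day 0 and at 11.33 and 11.49 on day 7 without feeder cells, and at 9.34 and 9.39 with them, where it reached 10.81 on day 17. It rose by 1.47 ± 0.37 to day 32 (limma adjusted p = 0.0167), a call lost when either the feeder-free array of day 0 or the feeder array of day 32 was left out. To day 7 the ligands had 1 rise and no fall, where 6.74% of all genes rose and 9.27% fell. That rise was Cntf at 0.49 ± 0.14 (limma adjusted p = 0.0436), a call lost in 13 of 21 alternatives. Of the other 5 receptor chains 1 rose to day 7 and 2 to day 32, where 6.74% and 17.4% of all genes did. None of them fell, where 9.27% and 13.7% of all genes did. Il27ra, which pairs with gp130 in the interleukin-27 receptor, rose by 0.50 ± 0.12 to day 7 and by 1.28 ± 0.12 to day 32 (limma adjusted p = 0.00029). Csf3r rose by 0.39 ± 0.12 to day 32. The first of these calls was lost in 5 of 21 alternatives and that of Csf3r in 7, both of them without the feeder-free day 0 array. Csf3r lay around background on day 0 (8.11 without and 7.82 with feeder cells) and in the feeder arm on day 32 (7.97).

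Of 8 further kinases and STATs 1 rose to day 7 and 5 to day 32, where 6.74% and 17.4% of all genes rose. None of the 8 fell in either interval, where 9.27% and 13.7% of all genes did. With 1 array left out the rises ran from 0 to 6 to day 7 and from 2 to 6 to day 32. Jak3, a JAK kinase best known from lymphocytes, rose by 1.66 ± 0.31 to day 7 (limma adjusted p = 0.0103). To day 32 Stat5a rose by 2.05 ± 0.43, Stat6 by 1.71 ± 0.21 and Stat5b by 1.28 ± 0.29, each a transcription factor of other cytokine receptors. Without the feeder-free day 0 array the calls of Jak3 to day 7 and of Stat5a and Stat5b to day 32 were lost, and that of Stat5b was also lost without the feeder day 32 array. The median of this list was 0.61 to day 7 and 1.07 to day 32. The kinases that gp130 is known to use, Jak1 and Jak2, were measured too. Jak1 did not pass in either interval, and Jak2 rose to day 32 only, at 0.86 ± 0.19 (adjusted p = 0.00992), a call lost without the feeder-free day 0 array.

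Of 13 further inhibitors 3 rose and none fell to day 7, where 6.74% of all genes rose and 9.27% fell. To day 32, 3 rose and 1 fell, where 17.4% and 13.7% of all genes did. Cish, a Socs relative induced by STAT5, rose by 1.05 ± 0.29 to day 7 (limma adjusted p = 0.0403) and by 1.84 ± 0.29 to day 32 (adjusted p = 0.00182). The early call of Cish held in 9 of 21 alternatives, and the later one in 21 of 21. Socs1, which blocks JAK kinases, rose by 1.03 ± 0.24 to day 7 and changed by -0.98 ± 0.22 from day 7 to day 17 (adjusted p = 0.0253). Ptpn6, the phosphatase SHP-1, rose by 0.89 ± 0.20 to day 7 and by 0.70 ± 0.20 to day 32, while Pias2 moved by -0.55 ± 0.12 to day 32 (adjusted p = 0.00843). Ptpn2, a phosphatase of JAK and STAT proteins, rose by 0.59 ± 0.11 to day 32, a call kept in 21 of 21 alternatives. Without the feeder-free day 0 array the calls of Socs1, Ptpn6 and Pias2 from day 0 were lost. The rise of Ptpn6 to day 7 was also lost without either feeder-free array of day 7, and that of Socs1 without the second. The rise of Ptpn6 to day 32 was also lost without the first feeder-free or the feeder array of day 32. The fall of Socs1 was lost without any 1 of the 3 arrays of day 17.

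Genes known as STAT3 targets went both ways. Of 22 measured 7 rose and 2 fell to day 7, where 6.74% and 9.27% of all genes did. To day 32, 6 rose and 4 fell, where 17.4% and 13.7% of all genes did. With 1 array left out the rises ran from 3 to 11 and the falls from 0 to 3 to day 7, and from 5 to 8 and 2 to 4 to day 32. Zfp36, which makes inflammatory mRNAs unstable, rose by 1.98 ± 0.22 to day 7 (limma adjusted p = 0.00117) and Junb, an AP-1 factor, by 1.94 ± 0.17 (adjusted p = 0.000391). These 2 calls held in 21 of 21 alternatives. Junb then changed by -0.81 ± 0.15 to day 17, a call lost without either feeder-free array of day 17. Tgm2, a transglutaminase, rose by 1.86 ± 0.29 and then changed by -1.41 ± 0.26 to day 17, the rise to day 7 being lost without the feeder-free day 0 array (adjusted p = 0.0694) and the fall without the first feeder-free day 7 array or either feeder-free array of day 17. Klf4, a naive pluripotency factor, rose by 0.71 ± 0.10 from day 7 to day 17 (adjusted p = 0.00625). The falls were led by Tfcp2l1 and Pim1, which act downstream of LIF in the naive state. To day 7 Tfcp2l1 changed by -2.80 without feeder cells and by -0.20 with them. Its call to day 7 was lost in 12 of 21 alternatives, and that of Pim1 in 1. Pim1, a kinase, went from 14.54 on day 0 to 12.27 and 12.41 on day 7 without feeder cells, and from 13.62 to 13.01 with them. By day 32 it had changed by -2.24 ± 0.28 (adjusted p = 0.000716) and Tfcp2l1, a transcription factor, by -2.40 ± 0.48 (adjusted p = 0.00531). Sgk1, a kinase, changed by -1.37 ± 0.35 to day 32 (adjusted p = 0.0174), a call lost without the feeder-free day 0 or the feeder day 32 array. Without the feeder-free day 0 array the call of Tfcp2l1 to day 32 was lost (adjusted p = 0.0785). So in the same arrays Socs3 and Junb were higher, and Pim1 lower, at day 32 than at day 0.

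**Figure D4:**
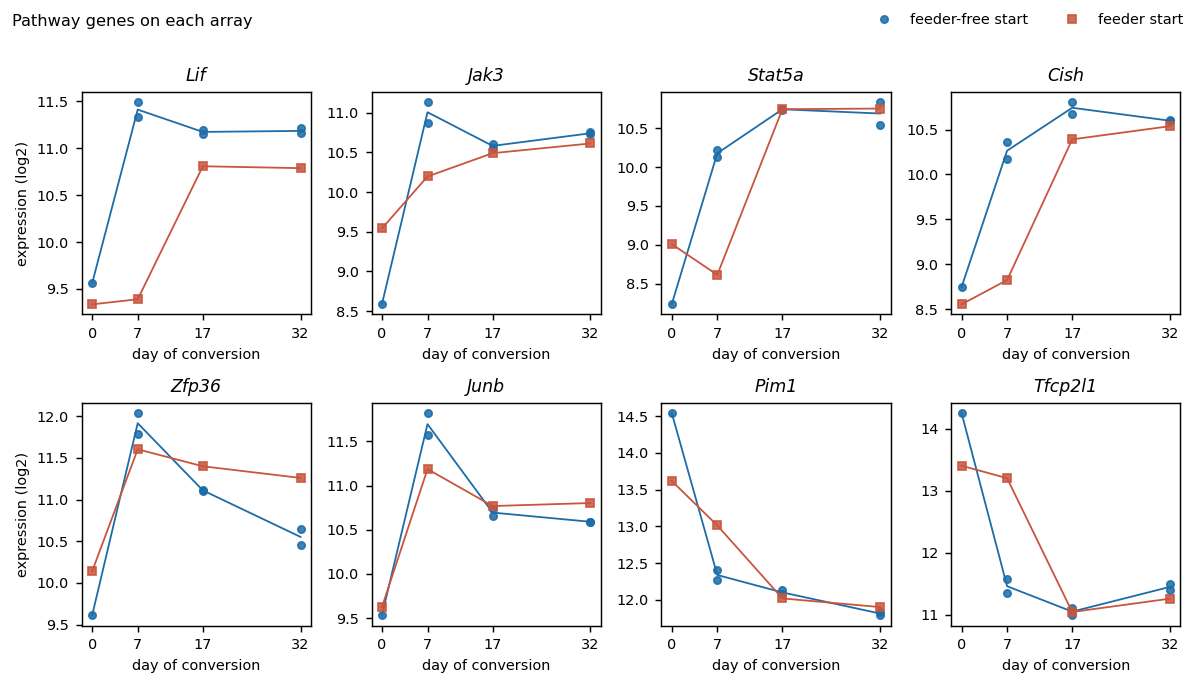
Expression (log2, a separate scale for each gene) of 8 pathway genes against day of conversion; each point is 1 array, circles for the feeder-free and squares for the feeder arm, and lines join group means. Lif in the feeder arm stood at 9.39 on day 7 and 10.81 on day 17, and Pim1 went down in both arms from 14.54 and 13.62.

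Acute phase genes are the targets of this pathway in liver. None of 11 passed to day 7, where 16.0% of all genes did. The largest changes were those of Fgg (0.52, limma adjusted p = 0.118) and Lbp (0.42, adjusted p = 0.474). To day 32 the fibrinogen genes Fgg (0.68 ± 0.20) and Fga (0.40 ± 0.10) rose and A2m changed by -1.68 ± 0.49 (limma adjusted p = 0.0307). Of all genes 17.4% rose and 13.7% fell to day 32. The call of Fgg was lost in 8 of 20 alternatives, that of A2m without the feeder array of day 0 or of day 32 or the first feeder-free array of day 32, and that of Fga without the feeder-free day 0 or feeder day 32 array. All Fga values, from 6.58 to 7.36, lay below background, as did the Fgg values of days 0 and 32 and the A2m values of day 32, so that the sizes of the first 2 changes are not read as expression. A2m started at 11.03 on feeder cells and at 8.49 without them.

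**Figure D5:**
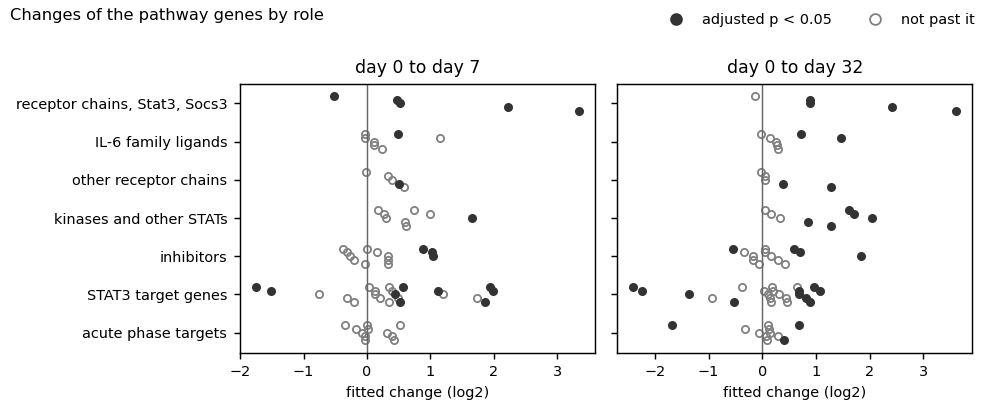
Fitted change (log2) from day 0 to day 7 (left) and to day 32 (right) of the 5 genes and of the 6 pathway lists; each point is 1 gene, filled where the limma adjusted p was under 0.05. The STAT3 target genes hold both called rises and called falls, with 7 and 2 to day 7 and 6 and 4 to day 32. Over all genes 6.74% rose and 9.27% fell to day 7, and 17.4% rose and 13.7% fell to day 32.

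A motif that STAT dimers bind, TTCNNNGAA, was looked for in RefSeq windows of 300 bases (GRCr8), 250 before and 50 after a transcript start. The motif reads alike on both strands, so 1 search covers both. It was in 8.87% of 33469 windows and 9.39% of 27457 genes with a window, in none of the windows of the 5 genes, and in those of 10 of 50 further pathway genes that had a window. For Socs3, Lifr and Il6st the window starts at a transcript inside the gene, 1207, 11602 and 11360 bases from its outer edge, so these windows leave out the outermost start. The window of Cish, which rose most to day 32 among the 13 further inhibitors, held 4 copies, and 2 of all 33469 windows held 4 or more. It is shown because the copies stand in pairs, with the motif in capitals (GRCr8, chr8:116850719-116851018, plus strand).

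Cish: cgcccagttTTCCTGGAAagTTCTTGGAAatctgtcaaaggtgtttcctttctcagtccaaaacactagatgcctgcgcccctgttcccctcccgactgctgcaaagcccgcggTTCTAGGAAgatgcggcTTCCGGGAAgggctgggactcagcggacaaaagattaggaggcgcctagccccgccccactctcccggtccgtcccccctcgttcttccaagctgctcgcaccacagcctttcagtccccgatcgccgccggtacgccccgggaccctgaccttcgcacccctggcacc

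Single copies stood in the windows of 5 other pathway genes with a called change between days, shown with 8 bases on each side and the motif in capitals. The first base of the copy lies at -196 from the start for Socs1, -126 for Klf4, -142 for Irf1, 10 for Zfp36 and -242 for Fga. Windows are GRCr8 chr10:5389324-5389623 (plus strand), chr5:75078543-75078842 (minus), chr10:38417685-38417984 (plus), chr1:92799059-92799358 (minus) and chr2:170671919-170672218 (plus).

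Socs1: aagtcccaTTCAGGGAAggtgcgag
Klf4: tacaacttTTCTAAGAAtttttgta
Irf1: agcctgatTTCCCCGAAatgatgag
Zfp36: agcctgacTTCTGCGAAccgactgt
Fga: ggccccacTTCCTGGAAtgtagaat

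The genes with a copy did not move as one. Zfp36 changed from day 0 to day 7 by 1.98, Irf1 by 1.12 and Socs1 by 1.03, and the last 2 fell again from day 7 to day 17, whereas Klf4 rose from day 7 to day 17 and not in the first week. The fall of Irf1 from day 7 to day 17 was lost in 11 of 21 alternatives. A match is a description of these letters and shows no binding.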

How the data were processed

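The authors deposited log2 values of the 11 arrays, which the submitters' processing notes say were made with RMA, in a version not given in the sources used here. Of 29214 rows 15310 had 1 gene symbol in GEO's platform annotation, 323 several and 13581 none. Where a gene had several rows, as 527 genes did, the row with the highest mean was kept, which left 14506 genes. The 5 genes and the lists were chosen with earlier results of these data known. Days were compared with limma 3.58.1 in R 4.3.3, with terms for day and arm over 11 arrays (6 residual degrees of freedom). Differences between arms used 8 group means (3 residual degrees of freedom). P-values were adjusted by Benjamini and Hochberg over all 14506 genes, with 0.05 as the threshold. The labels call the feeder-free replicates biological but do not say that they came from separate cultures. P-values therefore measure only the spread within these samples, and that between replicates may be technical. In the day comparisons the spread also holds differences between the arms in their change over days, for which those fits have no term. The number of arrays limits the precision. Replicates of a day correlated at 0.997 to 0.998, and none held identical values. The fits were checked on simulated data in which the added day 7 changes were alike in both arms. That check does not cover day comparisons of genes whose change differed between the arms. Pathway genes named come from up to 4 called genes of each list and comparison with the largest change, or 2 where none passed. Jak1, Jak2 and Irf1 in the first week were added after their values were seen. Alternatives covered the rows tested, normalization, centring, variance model, replicate block, arm term and each array left out.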

Additional observations from a re-analysis of the deposited data

Results flagged for a closer look

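The change differed between the arms by limma's test of the difference in 3 of the 5 genes and 25 of 66 further pathway genes from day 0 to day 7, where 22.0% of all genes passed, and in 1 and 26 from day 7 to day 17, where 19.7% did. Given here are those of the 5 genes that passed and, of each pathway list, the gene with the largest such difference (feeder change minus feeder-free change, log2), in which each single feeder array is taken to vary like the feeder-free pairs. From day 0 to day 7 the difference was -3.16 for Osmr, whose day 0 values both lay below background, -0.75 for Stat3 and -1.53 for Socs3. Of the further pathway genes it was -1.80 for Lif, -0.95 for Il11ra1, -2.34 for Stat5a, 1.43 for Socs2, 2.60 for Tfcp2l1 and 1.63 for Lbp. From day 7 to day 17 the difference was 1.97 for Osmr, 1.65 for Lif, 0.82 for Il6r, 1.56 for Stat5a, 1.09 for Cish, 2.85 for Myc and -1.29 for A2m. Over the same first interval all 8 hypoblast markers differed in the direction of Osmr and all 6 stem cell markers in the direction of Tfcp2l1.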

How the results depend on the processing

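Of 760 alternative values of the 40 changes of the 5 genes, 710 kept direction and side of the threshold, 26 lost the call, 10 gained it and 14 changed sign, none of these 14 being a called change. From day 7 to day 17 Il6st was -0.029 after further quantile normalization, and Osmr -0.26 with the feeder-free arrays alone and from -0.34 (without the feeder day 7 array) to 0.70 with 1 array left out. From day 17 to day 32 Socs3 was 0.012 after quantile normalization, 0.034 centred on the named genes and 0.060 with 1 mean per group. With 1 array left out it ran from -0.19 to 0.049, above 0 without either feeder-free day 17 array or the second of day 32, and Stat3 ran from -0.011 (without the first of day 32) to 0.081. Lifr from day 0 to day 32 ran from -0.27 to 0.019, the latter without the feeder-free day 0 array. With centring, the difference between arms from day 7 to day 17 was -0.035 for Lifr and -0.024 for Il6st, and that of Osmr on days 17 and 32 ran from -0.14 to 0.021, the latter without the first feeder-free day 32 array.

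Counts of called genes moved more. From day 0 to day 7 (2322) they were 4887 with 1 mean per group, 5348 with the feeder-free arrays alone and 805 without the arm term. From day 7 to day 17 (1850) they were 5347, 3458 and 266 under those settings, and from day 17 to day 32 (0) 934 and 1062 under the first 2 and 794 with the arrays of those days alone, chosen after seeing the data. From day 0 to day 32 (4504) the count was 2573 without the arm term, and between arms on days 17 and 32 (5660) 9187 with all rows. Of the 5 genes 2 were called to day 7 without the arm term. From day 7 to day 17, 1 was called with a trend and robust variance and 4 with 1 mean per group, and from day 17 to day 32, 1 was called with those days alone. Leaving out 1 array gave 684 to 4448 genes and 2 to 5 of the 5 to day 7, 364 to 2344 and 0 to 2 from day 7 to day 17, 0 to 232 from day 17 to day 32, and 2536 to 5528 and 3 to 4 to day 32. Stat3 to day 7 missed the threshold with all rows (adjusted p = 0.0655) and with centring (0.0537). The cause of these moves was not tested. A comparison that needs a group's single array has no value without it.

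Deviations of same-numbered replicates correlated at 0.03, -0.20 and -0.10 between days. With so few pairs these values cannot tell whether same-numbered samples came from the same culture, and the main fits did not pair them. With the replicate block 1325 genes and 3 of the 5 were called to day 7 (Osmr adjusted p = 0.0619, Stat3 0.0975), 984 genes from day 7 to day 17, and Stat3 missed the threshold between arms on day 0 (0.0602). Signal below the background of 8.06 limits Osmr at day 0.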
